A study of Rattus norvegicus with 64 samples.

Results

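The Notch pathway genes described here are 3 receptors (Notch1, Notch2, and Notch3), 3 ligands (Dll1, Jag1, and Jag2), and 4 target genes (Hes1, Hes5, Hey1, and Hey2). They were picked as a fixed list of 10 gene symbols, and 9 of the 10 had a row among the 17260 genes of the count tables. Jag2 was not analysed here. All 9 passed the filter on low counts that left 12521 genes for testing, and none of their exons overlapped an exon of another listed gene.

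Ribosome-depleted total RNA was sequenced from dissected entorhinal cortex of untreated Long Evans rats, an outbred strain, at 4 ages, postnatal days 2, 9, 23, and 45 (P2, P9, P23, and P45). From the medial (MEC) and the lateral (LEC) entorhinal cortex, layer II (LII) and the deeper layers (layers III to VI, LDeep) were taken separately, which gave 4 tissue pieces and 64 samples in 16 groups. Each piece was sampled 5 times at P2, 4 times at P9 and P45, and 3 times at P23, so that the younger ages (P2/P9) held 36 samples and the older ages (P23/P45) 28. The sex of the animals was not given in the sources used here, and each sample is a bulk piece of tissue holding neurons, glia, vessels, and, at the brain surface, possibly meninges.

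Notch receptors are cell surface proteins that are activated by ligands on a neighbouring cell. Delta-like ligands such as Dll1 and Jagged ligands such as Jag1 bind the receptor, proteases cut it within the membrane, and the freed intracellular domain enters the nucleus, joins the DNA-binding protein Rbpj and Mastermind coactivators, and turns on target genes. The Hes and Hey targets encode repressors of the basic helix-loop-helix family that hold back proneural genes. In the developing cortex the pathway is best known for keeping radial glia in a progenitor state and for promoting astrocyte fate, while Notch3 is also a receptor of the mural cells of vessels, and Jag1 a ligand found on endothelium and on other cells.

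Reference promoter sequences were searched for motifs bound by proteins of the pathway. RefSeq windows on the build GRCr8, from 250 bases before to 50 bases after the transcription start, were at hand for 8 of the 9 genes, all but Hey1. The motif TGGGAA, the core bound by Rbpj, was searched on both strands, and matches are written in capitals (TTCCCA is the match on the opposite strand). The windows of Hes5, Hes1, Hey2, and Dll1 each held 2 matches, the most among the 8 genes, and these windows are printed. Each is given 5′ to 3′ along the gene.
Hes5, chr5:170804327-170804626, plus strand:
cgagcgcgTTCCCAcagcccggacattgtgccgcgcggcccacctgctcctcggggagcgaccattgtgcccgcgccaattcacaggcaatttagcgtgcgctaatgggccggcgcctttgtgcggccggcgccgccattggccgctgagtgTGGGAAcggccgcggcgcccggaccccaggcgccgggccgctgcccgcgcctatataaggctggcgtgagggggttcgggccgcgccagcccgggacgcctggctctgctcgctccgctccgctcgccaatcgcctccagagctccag
Hes1, chr11:84212996-84213295, minus strand:
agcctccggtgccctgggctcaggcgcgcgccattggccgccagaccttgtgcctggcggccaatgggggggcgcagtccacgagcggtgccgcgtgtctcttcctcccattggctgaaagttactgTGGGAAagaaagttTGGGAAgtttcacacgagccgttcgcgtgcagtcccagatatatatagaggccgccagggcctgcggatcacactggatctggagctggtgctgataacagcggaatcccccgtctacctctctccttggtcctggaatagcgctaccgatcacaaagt
Hey2, chr1:28640850-28641149, plus strand:
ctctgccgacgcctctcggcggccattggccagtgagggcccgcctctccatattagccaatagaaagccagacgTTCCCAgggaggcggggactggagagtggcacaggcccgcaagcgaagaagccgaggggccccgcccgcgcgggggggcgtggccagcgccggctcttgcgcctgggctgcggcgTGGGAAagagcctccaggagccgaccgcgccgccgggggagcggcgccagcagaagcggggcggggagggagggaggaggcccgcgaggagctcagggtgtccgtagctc
Dll1, chr1:64993225-64993524, minus strand:
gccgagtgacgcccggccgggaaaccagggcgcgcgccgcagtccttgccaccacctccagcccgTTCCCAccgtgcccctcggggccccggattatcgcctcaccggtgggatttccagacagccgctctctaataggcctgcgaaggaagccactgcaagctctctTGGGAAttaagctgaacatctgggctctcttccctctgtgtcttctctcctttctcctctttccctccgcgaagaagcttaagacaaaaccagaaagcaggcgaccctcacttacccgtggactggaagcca

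In the Hes1 window both matches read in the direction of the gene and lay at bases -123 to -118 and -109 to -104 from the start. In the Hes5 window the matches lay at -242 to -237 and -98 to -93, in the Hey2 window at -175 to -170 and -60 to -55, and in the Dll1 window at -185 to -180 and -82 to -77, with the upstream match on the opposite strand in each of the 3. The Notch3 window held 1 match, at bases 43 to 48 after the start, and those of Notch1, Notch2, and Jag1 held none. Of 33465 rat windows of the same length, 25.7% held at least 1 match and 3.85% held 2 or more. The boxes bound by Hes and Hey repressors, CACNAG and CACGNG, were found in 43.1% and 26.1% of all windows. CACNAG had 4 matches in each of the Hes1 and Notch1 windows and 1 in that of Notch3, and CACGNG had 4 matches in the Hes1, 3 in the Notch2, 2 in the Jag1, and 1 each in the Notch1 and Dll1 windows. In the Hes1 window the stretch CACGAG at -171 to -166 and at -97 to -92 fits both motifs. A match to 6 letters describes the sequence and does not show that a factor binds there.

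Between 3894334 and 11439143 read pairs were counted per sample, with a median of 7569157.5, and 1 read pair stood for between 0.0874 and 0.257 CPM, the counts scaled to library size. Over the 64 samples Notch1 had 267 to 1348 counts and Hes1, the gene with the fewest, 18 to 171. Levels are on the log2 CPM scale, with 2 counts added as a prior count. Differences are log2 fold changes (LFC) with their standard error from the quasi-likelihood test of edgeR, and a gene is said to change where its Benjamini-Hochberg (BH) adjusted p value over all 12521 genes was under 0.05. The labels give replicate numbers without saying what they mark. The study numbered the MEC layer samples of its miRNA data by animal, and whether the numbers of these libraries follow the same animals was not stated in the sources used here. The p values therefore measure the spread between these samples, and values from a fit with the replicate number as a block are given where the block changed a call.

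Some libraries stood against their labels and touch the results at P2. The summed CPM of 10 meningeal fibroblast markers was 31.3 in the library labelled MEC LII of P2 replicate 1 and 1169 in that labelled MEC LDeep of P2 replicate 1, whereas the 8 LII libraries of P2 not doubted here lay between 819 and 1605 and the 9 other LDeep libraries of P2 between 38.7 and 116. The layer II neuron markers Reln and Calb1 summed to 688 CPM in the former library and to 775 CPM in the latter. A further library, labelled MEC LII of P2 replicate 3, had a meningeal sum of 70.5 CPM but a layer II neuron sum of 1057 CPM. Counts of changed Notch genes are given without these libraries where leaving them out changed the count.

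Counts per kilobase of exon allow the genes to be ordered by level. The median over the 64 samples in CPM per kilobase of exon (RPKM) was 44.6 for Hes5, 17.1 for Hey1, 8.69 for Notch2, 8.10 for Notch1, 6.73 for Hes1, 6.28 for Dll1, 6.18 for Notch3, 4.77 for Jag1, and 4.02 for Hey2. Neighbours in this order overlapped over the samples in every case. At P2/P9 Hes5 lay above Hey1 in 36 of 36 samples without overlap, from 35.1 to 86.5 RPKM against 6.92 to 23.6 RPKM, and the other neighbours overlapped. At P23/P45 the ranges of Hes5 and Hey1 met, with medians of 22.8 and 19.5 RPKM. Dll1 was the third of the 9 at P2/P9 with a median of 12.1 RPKM and the last at P23/P45 with 3.24 RPKM. The exon length used for Hey1, 885 bases in 15 annotated blocks, is short beside the 2421 bases of Hey2, and the order of these genes depends on these lengths.

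**Figure D1:**
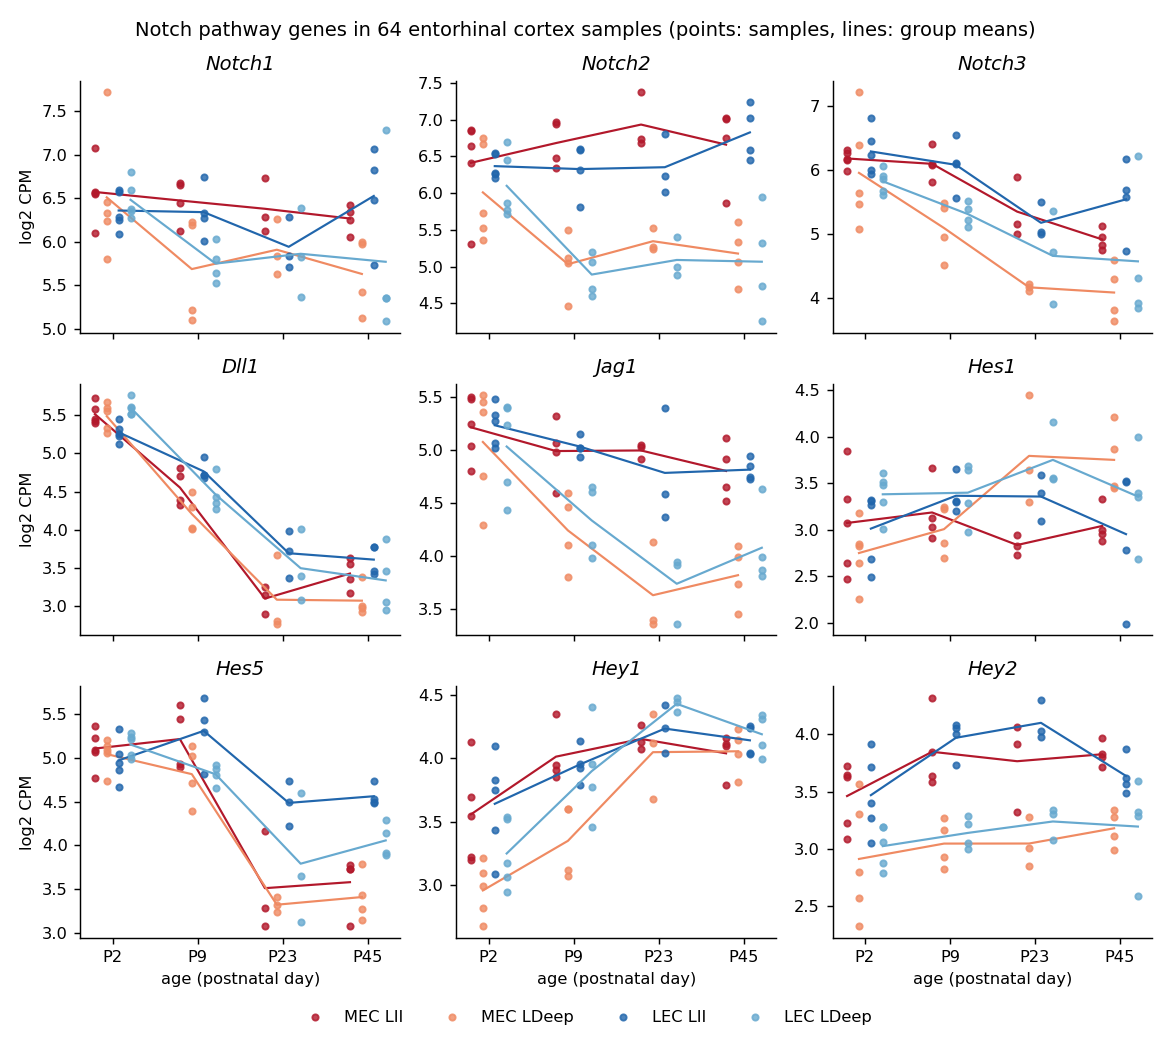
Level of each Notch pathway gene (log2 CPM, y axis) in 64 samples by age (x axis, postnatal day), coloured by tissue piece, with lines joining the group means. Dll1 and Hes5 fall to a lower level by P23 while Hey1 rises, and the group means of Notch2, Jag1, and Hey2 lie higher in LII.

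From the younger to the older ages, with the 4 pieces weighted equally, Dll1, Hes5, Notch3, and Jag1 fell and Hey1 and Hes1 rose, while Notch1, Notch2, and Hey2 did not pass the test. Thus 4 of 9 genes were lower and 2 higher at P23/P45. Among all genes tested 40.6% were lower and 41.0% higher, so a change with age was common among genes in general. The median LFC of the 9 genes was -0.21, against 0.01 over all genes tested. Without the MEC LII and MEC LDeep libraries of P2 replicate 1 the number of changed genes was 7, Hey2 being the added gene, and without all 3 doubted libraries it was 6. In bulk tissue, fewer cells of a type and less RNA per cell cannot be told apart.

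The ligand Dll1 (chr1:57318621-57326729 on rn6, minus strand, counted over 3114 bases of exon) had the largest change of the 9 genes. It ranged from 4.01 to 5.77 log2 CPM at P2/P9, with a median of 5.24, and from 2.77 to 4.01 log2 CPM at P23/P45, with a median of 3.37. Every older sample lay below every younger one, although the closest pair of samples was separated by a margin that vanishes on rounding. The mean level was 5.04 ± 0.54 log2 CPM (SD, n = 36) at the younger and 3.35 ± 0.36 log2 CPM (SD, n = 28) at the older ages. The LFC was -1.64 ± 0.07 (SE, BH adjusted p = 1.3e-29). Of the 9 genes Dll1 alone separated the age groups without overlap, as did 7.42% of all genes tested.

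Jag1 (chr3:130079361-130114781, minus strand), the other ligand measured, changed less. Its level was 3.80 to 5.52 log2 CPM at P2/P9 (median 5.02) and 3.36 to 5.39 log2 CPM at P23/P45 (median 4.44), and the age groups overlapped, with 5 of 28 older samples below all younger ones. The LFC was -0.57 ± 0.09 (BH adjusted p = 2.6e-08).

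Among the receptors, Notch3 (chr7:14138495-14189688, minus strand) fell and the 2 others did not pass the test. Notch3 ranged from 4.52 to 7.21 log2 CPM at P2/P9 (median 5.96) and from 3.64 to 6.21 log2 CPM at P23/P45 (median 4.79). Its LFC was -1.01 ± 0.13 (BH adjusted p = 4.2e-10), and 10 of 28 older samples lay below all younger samples. Notch1 (chr3:3905562-3951015, minus strand) had an LFC of -0.21 ± 0.12 (BH adjusted p = 0.095, 95% interval -0.44 to 0.02). It passed the test in 3 of 25 alternatives: the LFC was -0.27 (BH adjusted p = 0.017) with limma on quantile-normalized values, -0.36 (BH adjusted p = 0.0018) without the libraries numbered replicate 4 of P45, and -0.29 (BH adjusted p = 0.041) without replicate 2 of P23. Notch2 (chr2:200187184-200317621, plus strand) had an LFC of -0.05 ± 0.11, with a 95% interval from -0.27 to 0.16.

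Among the targets, Hes5 fell while Hey1 rose. Hes5 (chr5:172364421-172365188, plus strand), a repressor expressed in cortical progenitors, lay between 4.39 and 5.69 log2 CPM at P2/P9 (median 5.05) and between 3.08 and 4.74 log2 CPM at P23/P45 (median 3.78). The LFC was -1.21 ± 0.08 (BH adjusted p = 1.3e-20), and 21 of 28 older samples were below all younger ones. Hey1 (chr2:95320283-95322701, plus strand) lay between 2.68 and 4.40 log2 CPM at P2/P9 (median 3.57) and between 3.67 and 4.48 log2 CPM at P23/P45 (median 4.13). Its LFC was 0.58 ± 0.07 (BH adjusted p = 2.2e-11), and the spread was wider at the younger ages, with an SD of 0.45 against 0.19 on the log2 scale.

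Hes1 (chr11:74312837-74315249, minus strand), a further repressor of the same family, had an LFC of 0.22 ± 0.10 (BH adjusted p = 0.036). It ranged from 2.26 to 3.84 log2 CPM at the younger and from 1.99 to 4.45 log2 CPM at the older ages, so the older samples reached both lower and higher. The call was lost in 12 of 25 alternatives, among them leaving out the libraries numbered replicate 4 or 5 of P2, 2 or 4 of P9, 1 or 3 of P23, and 1 or 3 of P45, where the LFC was 0.12 to 0.22. With the replicate block the LFC was 0.20 (BH adjusted p = 0.093) by limma and 0.26 (BH adjusted p = 0.091) by summed counts, and the call was lost as well. Hey2 (chr1:29191170-29201257, plus strand) had an LFC of 0.13 ± 0.07 (BH adjusted p = 0.081, 95% interval -0.01 to 0.28), which passed the test at 0.16 without replicate 1 of P2, at 0.17 without replicate 3 of P9, and at 0.15 without the MEC libraries of P2 replicate 1.

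The steps between neighbouring ages placed the changes in time. These steps share samples, as P9 enters both of the earlier steps and P23 both of the later ones. From P2 to P9, 5 of 9 genes fell and 2 rose, where 31.8% of all genes tested fell and 31.6% rose. Over the 4 pieces the ligands Dll1 (LFC -0.97 ± 0.08) and Jag1 (-0.51 ± 0.11) and the receptors Notch2 (-0.53 ± 0.15), Notch3 (-0.45 ± 0.16), and Notch1 (-0.44 ± 0.16) fell. The targets Hey1 (0.45 ± 0.09) and Hey2 (0.27 ± 0.10) rose. The Notch2 group mean went from 6.41 to 6.68 log2 CPM in MEC LII and from 6.37 to 6.33 in LEC LII. In MEC LDeep it went from 6.01 to 5.03 and in LEC LDeep from 6.10 to 4.89. The MEC LII mean of Notch2 at P2 includes the doubted library of replicate 3, at 5.30 against 6.41 to 6.86 in the other samples. The Notch1 group mean went from 6.57 to 6.47 in MEC LII and from 6.36 to 6.34 in LEC LII. In MEC LDeep it went from 6.51 to 5.69 and in LEC LDeep from 6.48 to 5.75. The step was not tested within single pieces. Hes5 had an LFC of -0.02 ± 0.10 (BH adjusted p = 0.90, 95% interval -0.20 to 0.17), with medians of 5.08 log2 CPM at P2 and 4.92 log2 CPM at P9. Its group mean went from 5.10 to 5.21 log2 CPM in MEC LII and from 4.97 to 5.31 in LEC LII. In MEC LDeep it went from 5.04 to 4.81 and in LEC LDeep from 5.15 to 4.81. Without the libraries numbered replicate 4 of P2 the LFC of Notch1 and of Notch3 was -0.29 and neither passed the test, nor did they with the replicate block by summed counts (-0.44 and -0.42), and Hey2 did not pass without replicate 3 of P2 (LFC 0.21) or replicate 3 of P9 (0.20).

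From P9 to P23, 4 of 9 genes fell and 1 rose, where 32.1% of all genes tested fell and 32.5% rose. Hes5 fell in this step (LFC -1.24 ± 0.12, BH adjusted p = 1.1e-13), from a median of 4.92 to 3.53 log2 CPM. Dll1 fell again (-1.15 ± 0.10, BH adjusted p = 3.5e-15), as did Notch3 (-0.79 ± 0.19) and Jag1 (-0.36 ± 0.13), and Hey1 rose again (0.41 ± 0.10). The Jag1 call was lost without replicate 1 of P9 (LFC -0.27), replicate 2 of P23 (-0.33), or replicate 3 of P23 (-0.27), and with the replicate block by summed counts (-0.30). Notch2 did not continue its earlier change, with an LFC of 0.19 ± 0.16 (95% interval -0.13 to 0.52).

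From P23 to P45 edgeR called 0 of 9 genes, where 3.85% of all genes tested changed. At an unadjusted p under 0.05 the number was also 0, and DESeq2 and limma each called 0. The LFC of the 9 genes lay between -0.13 for Hes1 and 0.10 for Notch1. The 95% interval was -0.21 to 0.19 for Dll1, -0.15 to 0.31 for Hes5, and -0.31 to 0.08 for Hey1, so each bound is smaller in size than the change of the same gene from P9 to P23.

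**Figure D2:**
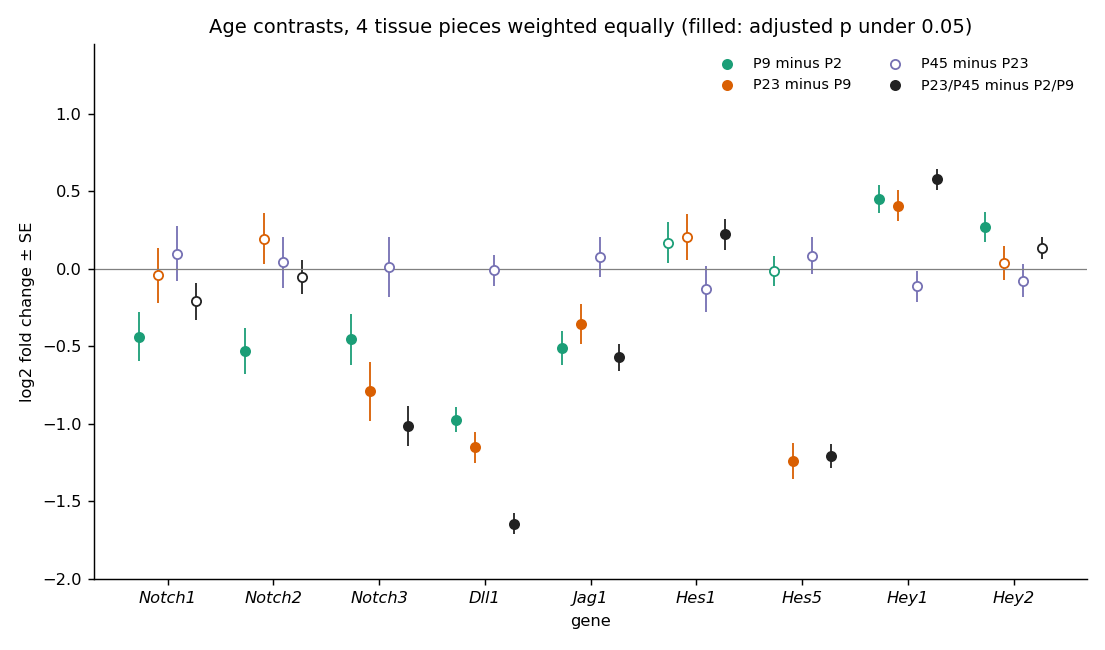
LFC ± SE (y axis, log2 scale) of each Notch pathway gene for the 3 steps between neighbouring ages and for P23/P45 against P2/P9, with filled points for a BH adjusted p under 0.05. Dll1 falls in the earlier and in the middle step, Hes5 in the middle step (-1.24), and none of the 9 genes passes from P23 to P45.

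Within single tissue pieces the older samples differed from the younger for 4 of 9 genes in MEC LII, 6 in MEC LDeep, 4 in LEC LII, and 5 in LEC LDeep. Of all genes tested 66.5%, 66.2%, 62.7%, and 64.5% changed in these pieces. Dll1, Hes5, and Notch3 fell in each of the 4 pieces. The LFC of Dll1 was -1.81 ± 0.13 in MEC LII, -1.78 ± 0.13 in MEC LDeep, -1.38 ± 0.13 in LEC LII, and -1.61 ± 0.13 in LEC LDeep. That of Hes5 was -1.60 ± 0.16 in MEC LII, -1.59 ± 0.16 in MEC LDeep, -0.64 ± 0.15 in LEC LII, and -1.01 ± 0.15 in LEC LDeep. Notch3 fell by between 0.75 in LEC LDeep and 1.51 in MEC LDeep, and its call in LEC LDeep was lost without replicate 3 of P23 (LFC -0.60), while without replicate 4 of P45 the LFC there was -1.17. Without that replicate Notch1 and Notch2 also passed in LEC LDeep, with an LFC of -0.52 (BH adjusted p = 0.029) and -0.55 (BH adjusted p = 0.029), where the values over all samples were -0.14 and -0.39 and did not pass. Hey1 rose in all 4 pieces, from an LFC of 0.29 ± 0.13 in MEC LII to 0.92 ± 0.13 in MEC LDeep, but its MEC LII call (BH adjusted p = 0.048) was lost in 18 of 23 alternatives and its LEC LII call (0.37 ± 0.13) without replicate 3 of P23 (LFC 0.28) or replicate 3 of P45 (0.32).

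Hes1 and Jag1 changed with age in some pieces. In MEC LDeep the 9 younger samples of Hes1 lay between 2.26 and 3.24 log2 CPM, the 3 samples of P23 at 4.45, 3.29, and 3.64, and the 4 samples of P45 at 4.21, 3.45, 3.47, and 3.87. All older samples were thus above all younger ones, and the LFC was 0.94 ± 0.20 (BH adjusted p = 3.6e-05). In MEC LII the LFC of Hes1 was -0.25 ± 0.20, in LEC LII 0.01 ± 0.20, and in LEC LDeep 0.20 ± 0.19, and none of these passed the test. Jag1 fell in MEC LDeep (LFC -0.97 ± 0.17) and LEC LDeep (-0.81 ± 0.17), with -0.21 ± 0.17 in MEC LII and -0.30 ± 0.17 in LEC LII. The LEC LII value passed the test without replicate 5 of P2 (-0.37) or replicate 1 of P23 (-0.53). Whether this contrast between the layers exceeds the error is tested with the layers.

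The older and younger groups did not overlap for 2 of 9 genes in MEC LII (Dll1 and Hes5, both lower), 4 in MEC LDeep (Dll1 and Hes5 lower, Hes1 and Hey1 higher), 1 in LEC LII (Dll1), and 2 in LEC LDeep (Dll1 and Hes5). Of all genes tested 28.2%, 26.4%, 25.7%, and 26.4% did not overlap in these pieces. For Hes5 in MEC LDeep the younger samples lay at 4.39 to 5.20 and the older at 3.16 to 3.78 log2 CPM. For Hey1 there they lay at 2.68 to 3.60 and 3.67 to 4.35 log2 CPM.

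Markers of cell types moved with age beside these genes. All 7 markers of dividing cells were lower at P23/P45, and their summed level was 79.0 to 416 CPM in younger and 11.3 to 27.1 CPM in older samples. Of 7 radial glia and progenitor markers 5 were lower and 1 higher, with sums of 1264 to 2586 CPM and 337 to 1045 CPM. Of 9 astrocyte markers 7 were higher and 1 lower, with sums of 831 to 4722 CPM in younger and 4086 to 7628 CPM in older samples. All 7 oligodendrocyte markers were higher, with sums of 117 to 915 CPM and 828 to 16723 CPM. Of 8 mural cell markers 4 were higher and 2 lower, and of 7 endothelial markers 3 were higher and 1 lower. All 5 microglia markers and 5 of 6 neuron markers were higher. The sum of the radial glia markers had a median of 1761 CPM at P2, 1789 CPM at P9, and 626 CPM at P23, and that of the dividing cell markers 208 CPM, 117 CPM, and 17.8 CPM. No marker of these lists was at 0 in every younger or every older sample. The part of these cells in the changes of Dll1, Hes5, Notch3, and Hey1 was not tested.

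Between layers, with ages and regions weighted equally, 7 of 9 genes were higher in LII and 1 was lower. Among all genes tested 23.5% were higher in LII and 30.5% lower. All 3 receptors, the ligand Jag1, and the targets Hes5, Hey1, and Hey2 were up-regulated in LII, whereas Hes1 was higher in LDeep and Dll1 did not pass the test. The median LFC of the 9 genes was 0.35, against -0.05 over all genes. The number of changed genes was 8 without the MEC libraries of P2 replicate 1 and 9 without all 3 doubted libraries, Dll1 being the added gene.

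Of the receptors, Notch2 differed most between layers. Its level was 5.30 to 7.37 log2 CPM in LII (median 6.59) and 4.26 to 6.76 log2 CPM in LDeep (median 5.33), with an LFC of 1.23 ± 0.11 (BH adjusted p = 6.9e-14). The lowest LII value came from the doubted MEC LII library of P2 replicate 3, and without all 3 doubted libraries the LFC was 1.28. Notch3 was higher in LII by an LFC of 0.69 ± 0.13, with medians of 5.96 and 5.17 log2 CPM, and Notch1 by 0.35 ± 0.12, with medians of 6.34 and 5.99 log2 CPM. For these 2 receptors the range over LII samples lay inside that over LDeep samples.

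Jag1 lay between 4.37 and 5.50 log2 CPM in LII (median 5.02) and between 3.36 and 5.52 log2 CPM in LDeep (median 4.12), with an LFC of 0.73 ± 0.08 (BH adjusted p = 1.4e-10). The LFC of Dll1 was 0.14 ± 0.06 (BH adjusted p = 0.066, 95% interval 0.01 to 0.26), and Dll1 passed the test in 10 of 24 alternatives, with the largest LFC, 0.19, without replicate 1 of P23, and an LFC of 0.15 (BH adjusted p = 0.014) with the replicate block. Among the targets Hey2, a repressor best known from heart and vessels, had the largest LFC, 0.67 ± 0.07 (BH adjusted p = 1.8e-11), with LII at 3.05 to 4.32 and LDeep at 2.32 to 3.59 log2 CPM. Hes5 was higher in LII by an LFC of 0.30 ± 0.08 and Hey1 by 0.20 ± 0.07. The Hey1 value was 0.07 and did not pass with limma on quantile-normalized values. By edgeR it was 0.35 ± 0.09 within MEC but 0.05 ± 0.09 within LEC. At P23 it was -0.06 ± 0.15 and at P45 -0.03 ± 0.13, and the values of LEC, P23, and P45 did not pass. Hes1 was lower in LII by an LFC of -0.31 ± 0.10 (BH adjusted p = 0.0075), with medians of 3.11 log2 CPM in LII and 3.37 log2 CPM in LDeep and overlapping ranges.

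The layers were also compared at each age. At P2, 2 of 9 genes passed the test, Hey1 (LFC 0.54 ± 0.12) and Hey2 (0.49 ± 0.13), where 19.2% of all genes tested did. Without the MEC libraries of P2 replicate 1 these values were 0.50 and 0.64, and both still passed. With limma on quantile-normalized values the P2 call of Hey2 was lost. At P9, 8 of 9 genes passed, all higher in LII, where 33.0% of all genes did. Notch2 there was at 5.81 to 6.96 log2 CPM in LII and 4.46 to 5.49 log2 CPM in LDeep, and its LFC was 1.55 ± 0.22. Hes1 at P9 had an LFC of 0.07 ± 0.19. The P9 call of Hey1 was lost with limma on quantile-normalized values. The P9 calls of Dll1, Hey1, Notch1, and Hes5 were each lost when libraries of a single replicate number of P9 were left out, with LFC of 0.25 and 0.28 for Dll1 without replicate 1 or 2, 0.24 to 0.38 for Hey1 without replicate 1, 2, or 3, 0.51 and 0.68 for Notch1 without replicate 4 or 3, and 0.35 for Hes5 without replicate 3.

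At P23 and at P45, 5 of 9 genes passed, Notch2, Notch3, Jag1, and Hey2 higher and Hes1 lower in LII, where 25.9% and 26.4% of all genes tested did. At P45 Notch2 lay between 5.87 and 7.23 log2 CPM in LII and between 4.26 and 5.95 log2 CPM in LDeep, with an LFC of 1.60 ± 0.22. Jag1 at P23 lay between 4.37 and 5.39 log2 CPM in LII and between 3.36 and 4.13 log2 CPM in LDeep, with an LFC of 1.23 ± 0.20. The P45 call of Hey2 was lost with limma on quantile-normalized values. Notch3 had an LFC of 0.83 ± 0.29 at P23 and 0.77 ± 0.25 at P45. The P23 call of Notch3 was lost without any 1 of the 3 replicate numbers of that age (0.74 to 0.97), and the P45 call without replicate 1, 2, or 3 (0.55 to 0.68), while the LFC at P45 was 1.25 without replicate 4. In an edgeR fit of the P45 samples alone Notch3 did not pass (0.77, BH adjusted p = 0.077), while Hes5 did (0.36, BH adjusted p = 0.040). Notch1 at P45 had an LFC of 0.57 ± 0.23 (BH adjusted p = 0.061) and 0.92 (BH adjusted p = 0.0017) without replicate 4. Without all 3 doubted libraries of P2 the number at P45 was 6, Notch1 being added (0.59, BH adjusted p = 0.049). With the replicate block 6 of 9 genes passed at P23, Hes5 being added (0.42, BH adjusted p = 0.040). At P45 the number with the block was 8. Notch1 (0.67, BH adjusted p = 0.010), Dll1 (0.32, BH adjusted p = 0.023), and Hes5 (0.35, BH adjusted p = 0.046) were added there. All these added genes were higher in LII. The shares of all genes given for these ages are those of edgeR with all libraries and no block.

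Hes1 went the other way at the older ages. In LII it was at 2.73 to 3.59 log2 CPM at P23 and 1.99 to 3.53 log2 CPM at P45, and in LDeep at 3.29 to 4.45 and 2.69 to 4.21 log2 CPM. The LFC of LII against LDeep was -0.74 ± 0.23 at P23 and -0.58 ± 0.20 at P45. The P23 call was lost without replicate 1 of P23 (LFC -0.51), and the P45 call without replicate 1 or replicate 2 of P45 (-0.52 in both cases). The P45 call was also lost in an edgeR fit of the P45 samples alone (-0.57, BH adjusted p = 0.067).

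**Figure D3:**
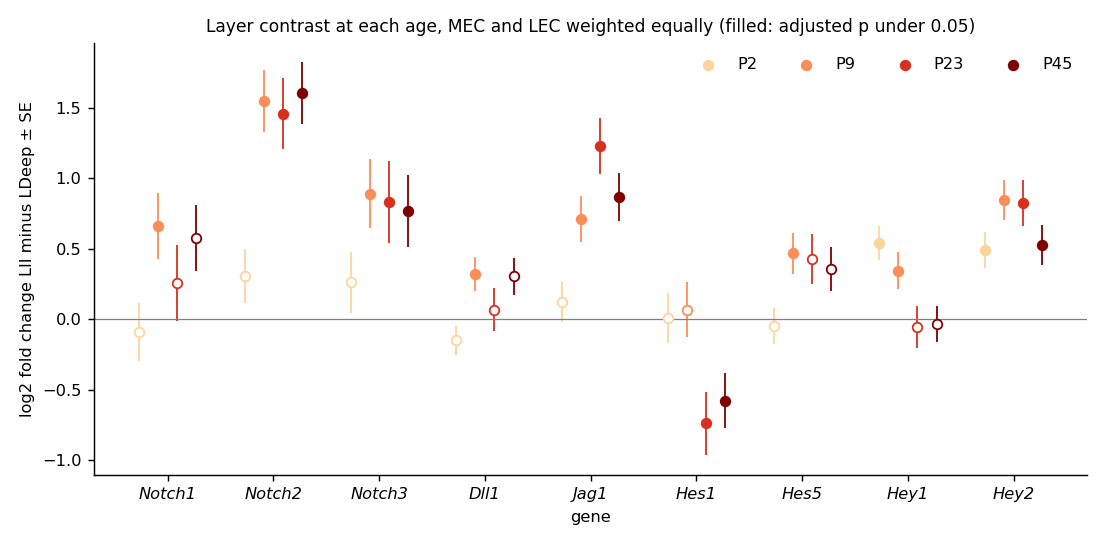
LFC ± SE of LII against LDeep (y axis, log2 scale) for each Notch pathway gene at P2, P9, P23, and P45, with MEC and LEC weighted equally and filled points for a BH adjusted p under 0.05. At P2 only Hey1 and Hey2 are filled, from P9 on Notch2, Notch3, Jag1, and Hey2 stay above 0 at each age, and Hes1 lies below 0 at P23 and P45.

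The change of the layer difference from P2/P9 to P23/P45 was itself tested, and 3 of 9 genes passed, where 8.80% of all genes tested did. The layer LFC of Jag1 increased by 0.63 ± 0.17 (BH adjusted p = 0.010). That of Hes1 changed by -0.69 ± 0.20 (BH adjusted p = 0.017) and that of Hey1 by -0.49 ± 0.13 (BH adjusted p = 0.011). The value for Notch2 was 0.60 ± 0.22 (BH adjusted p = 0.077), and 0.71 with a pass of the test without replicate 4 of P45. Jag1 did not pass without replicate 3 of P23 (0.53) or replicate 1 of P45 (0.52), and Hes1 without replicate 1 of P23 (-0.62, BH adjusted p = 0.052). Leaving out the MEC libraries of P2 replicate 1 gave 0.58 for Jag1, -0.63 for Hes1, and -0.46 for Hey1, and all 3 passed.

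Within MEC 6 of 9 genes differed between layers and within LEC 5, all higher in LII, where 40.8% and 38.6% of all genes tested differed. Notch2, Notch3, Jag1, and Hey2 were among them in both regions, with LFC of 1.29 and 1.16 for Notch2 and of 0.80 and 0.67 for Jag1. The Notch1 call in MEC (0.43 ± 0.17, BH adjusted p = 0.032) was lost in 9 of 25 alternatives, at 0.38 to 0.42. In MEC the number was 7 without the 2 libraries of P2 replicate 1, with Notch1 lost and Hes5 (0.26) and Hes1 (-0.37) added, and 7 without all 3 doubted libraries, with Hes1 (-0.39) added, so that Hes1 was then lower in LII. With the replicate block it was 8 in MEC, Dll1 (0.18) and Hes1 (-0.29) being added, and 6 in LEC, Hes1 (-0.32) being added. With limma on quantile-normalized values it was 6 in MEC, Hey1 being lost and Hes1 (-0.57) added. In LEC it was 7, where Notch1 (0.40) and Hes1 (-0.55) were added. The shares of all genes given for MEC and LEC are those of edgeR with all libraries and no block. The difference of the layer LFC between the regions was tested as well, and edgeR called 0 of 9 genes, where 1.25% of all genes tested passed. At an unadjusted p under 0.05 the number was 1, Hey1 (0.30 ± 0.13), and DESeq2 and limma each called 0. The 95% interval of this difference was -0.30 to 0.56 for Notch2 and -0.20 to 0.46 for Jag1.

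Markers of several cell types, among them surface and vessel cells, moved with the layers. Of 10 meningeal fibroblast markers 9 were higher in LII and 1 lower, and their summed level had a median of 1068 CPM in LII (31.3 to 1717) and 130 CPM in LDeep (38.7 to 1169). All 8 mural cell markers were higher in LII, with medians of 263 and 139 CPM (111 to 572 and 86.1 to 238), as were all 7 endothelial markers, with medians of 403 and 211 CPM (164 to 482 and 129 to 350). Of 9 astrocyte markers 7 were higher in LII, as were all 7 radial glia and progenitor markers and 5 of 7 dividing cell markers. Of 7 oligodendrocyte markers 1 was higher and 4 were lower in LII, and of 6 neuron markers 4 were lower. At P2, where Notch2, Notch3, and Jag1 did not pass the test between layers, 9 of 10 meningeal, 5 of 8 mural, and 7 of 7 endothelial markers were already higher in LII. Of the 7 radial glia and progenitor markers 1 was higher and 1 lower in LII at P2, and of the 7 dividing cell markers 2 were higher. In the doubted MEC LII library of P2 replicate 3, with a meningeal sum of 70.5 CPM, Notch2 was at 5.30 log2 CPM and the 4 other samples of its group at 6.41 to 6.86. These 4 include the doubted library labelled MEC LII of P2 replicate 1, whose meningeal sum was lower still, at 31.3 CPM. The part of any of these cell types in the layer differences of Notch2, Notch3, and Jag1 was not tested.

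Between regions, with ages and layers weighted equally, Hes5, Dll1, and Hey1 were lower in MEC than in LEC, and the 6 other genes did not pass the test. Thus 3 of 9 genes were lower and 0 higher, where 6.53% of all genes tested were lower in MEC and 8.87% higher. The LFC was -0.40 ± 0.08 for Hes5 (BH adjusted p = 8.1e-05), -0.23 ± 0.06 for Dll1 (BH adjusted p = 0.0086), and -0.20 ± 0.07 for Hey1 (BH adjusted p = 0.034). The Hey1 call was lost in 7 of 24 alternatives, those without replicate 2 or 4 of P9, 1 or 3 of P23, or 1, 2, or 3 of P45, at -0.16 to -0.21. Within LDeep the Hey1 LFC was -0.35 ± 0.09 and passed, and within LII it was -0.05 ± 0.09 and did not. Hes5 passed within LII (-0.46 ± 0.11) but not within LDeep (-0.33 ± 0.11, BH adjusted p = 0.054). Dll1 passed neither within LII (-0.19 ± 0.09, BH adjusted p = 0.17) nor within LDeep (-0.26 ± 0.09, BH adjusted p = 0.073). The LDeep values of Hes5 and Dll1 passed with DESeq2 and with the replicate block. The number of genes that differed between regions was 3 also without the doubted libraries.

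The regional difference of Hes5 lay at the older ages. At P2/P9, Hes5 was at 4.39 to 5.60 log2 CPM in 18 MEC samples (median 5.08) and at 4.65 to 5.69 log2 CPM in 18 LEC samples (median 5.01). At P23/P45, it was at 3.08 to 4.17 log2 CPM in 14 MEC samples (median 3.37) and at 3.12 to 4.74 log2 CPM in 14 LEC samples (median 4.38). The LFC was -0.01 ± 0.10 at the younger (95% interval -0.20 to 0.18) and -0.79 ± 0.12 at the older ages (BH adjusted p = 1.2e-06). The mean of Hes5 at the older ages was 11.0 ± 2.73 CPM (SD, n = 14) in MEC and 19.4 ± 5.35 CPM (SD, n = 14) in LEC. Its value at these ages lay between -0.73 and -0.84 in all alternatives.

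Single samples of Hes5 show where the regions separated. At P23 the 3 samples of MEC LII were at 4.17, 3.08, and 3.29 log2 CPM and those of LEC LII at 4.73, 4.23, and 4.49. In LDeep of P23 they were at 3.32, 3.24, and 3.41 in MEC and at 4.60, 3.65, and 3.12 in LEC, so that 1 LEC sample lay below all 3 MEC samples. At P45 MEC LII was at 3.08, 3.73, 3.74, and 3.78 and LEC LII at 4.52, 4.48, 4.50, and 4.74, while MEC LDeep was at 3.28, 3.43, 3.16, and 3.78 and LEC LDeep at 3.91, 4.14, 3.89, and 4.29. Over both layers at P45 the MEC samples thus lay at 3.08 to 3.78 and the LEC samples at 3.89 to 4.74.

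**Figure D4:**
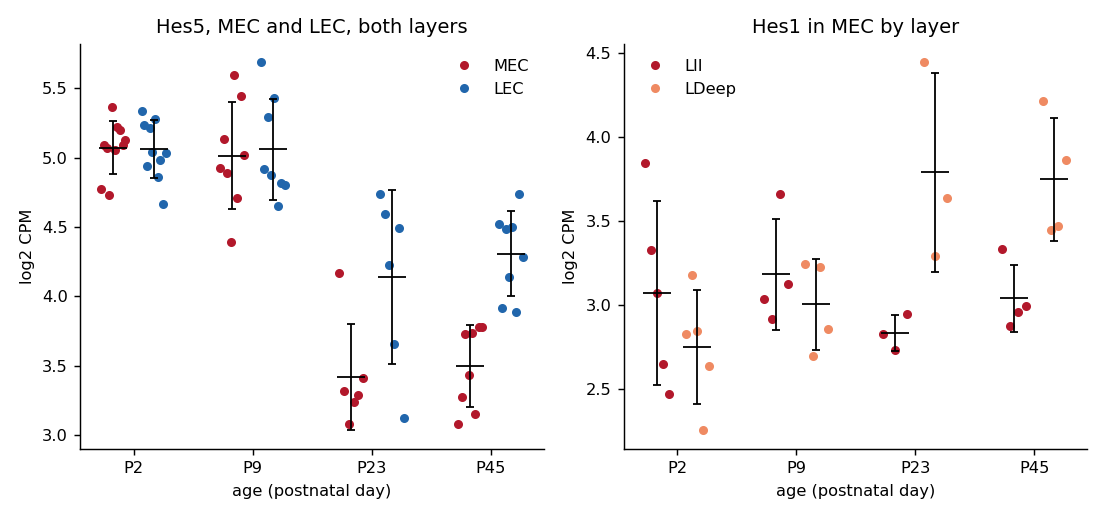
Left, Hes5 (log2 CPM, y axis) in MEC and LEC samples of both layers by age (x axis), and right, Hes1 in MEC samples by layer and age, with each sample as a point and bars for the group mean ± SD. At P45 the MEC samples of Hes5 lie at 3.08 to 3.78 and the LEC samples at 3.89 to 4.74, and Hes1 in MEC LDeep lies above all its younger samples at P23 and P45.

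Over the 9 genes, edgeR called 0 between regions at P2/P9, where 7.59% of all genes tested passed, and 2 at P23/P45, Hes5 and Dll1, where 12.8% did. At P2/P9 the number at an unadjusted p under 0.05 was 2, Hes1 (-0.27 ± 0.13) and Hey1 (-0.22 ± 0.09), and DESeq2 and limma each called 0. Without the doubted libraries it was 1, Hey1 (-0.29 without 2 and -0.27 without 3 libraries), and Hey1 also passed without replicate 3 of P9 (-0.30). Dll1 had an LFC of -0.08 ± 0.08 at P2/P9 and -0.38 ± 0.10 at P23/P45 (BH adjusted p = 0.0065), with medians of 3.16 log2 CPM in MEC and 3.46 log2 CPM in LEC at the older ages. The change of the regional difference with age passed the test for 1 of 9 genes, Hes5 (-0.77 ± 0.15, BH adjusted p = 8.3e-04), where 4.38% of all genes tested passed, and Hes5 passed in all alternatives. For Dll1 it was -0.30 ± 0.13 (BH adjusted p = 0.20), so that a change of its regional difference with age was not shown.

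Oligodendrocyte markers moved with region at the older ages. Of 7 such markers 4 were higher in MEC, and their summed level at P23/P45 had a median of 6051 CPM in MEC (3619 to 16723) and 2199 CPM in LEC (828 to 7217). For 5 of 7 the regional difference increased with age. Of 9 astrocyte markers 1 was higher in MEC, with sums of 4086 to 7628 CPM in MEC and 4389 to 7320 CPM in LEC at the older ages. Of 7 radial glia markers 1 was lower in MEC, with medians of 535 and 651 CPM. The part of these cells in the regional difference of Hes5 was not tested.

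A list of 49 other genes of the pathway places the 9 genes among their partners. Of these 45 had a row and 43 were tested, and 12 were higher and 18 lower at P23/P45, while 13 did not pass. Of all genes tested 41.0% were higher and 40.6% lower. Dner, Maml2, Spen, and Dtx1 were not analysed here, and Aph1b and Hes2 were under the filter. Among the other receptor and ligands 3 of 5 tested fell, Dll3 (LFC -3.16 ± 0.21), Dll4 (-0.54 ± 0.14), and Dlk2 (-0.44 ± 0.07). Dll3, a ligand that acts inside the cell, had a median of 2.13 log2 CPM at P2 and -1.06 log2 CPM at P45, where it rested on few counts. Among 5 other targets tested 3 fell, including Hes6 (-3.14 ± 0.10) and Hes7 (-2.57 ± 0.14), and Heyl rose (1.58 ± 0.15). Hes7 was at 0.137 to 0.972 CPM at P23/P45, where it also rested on few counts. Hes6, known to promote rather than block neuronal differentiation, was at 6.07 to 8.24 log2 CPM at P2/P9 and 3.61 to 4.80 log2 CPM at P23/P45.

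Of the Groucho corepressors, the partners of Hes and Hey proteins, 3 of 4 fell with age, Tle1 (LFC -0.88 ± 0.07), Tle2 (-0.76 ± 0.09), and Tle4 (-0.46 ± 0.08). Of 12 genes of ligand and receptor trafficking 6 rose and 3 fell. Neurl1, a ubiquitin ligase acting on ligands, rose by 1.48 ± 0.06, the receptor antagonist Numb rose by 1.10 ± 0.05, and Dtx4 fell by 1.00 on the log2 scale. Numb was at 3.39 to 4.23 log2 CPM at P2/P9 and 4.62 to 5.41 log2 CPM at P23/P45. These age groups did not overlap, as for 7.42% of all genes tested. In the nuclear complex 2 of 5 rose, among them Snw1 (0.50 ± 0.05), and 2 fell, among them the coactivator Maml1 (-0.38 ± 0.07). The genes of receptor cleavage moved little: 2 of 7 rose and 2 fell, with Psenen at 0.52 ± 0.06 and Aph1a at -0.39 ± 0.03. Of 5 receptor glycosylation genes 1 rose, Lfng (0.36 ± 0.07), and 2 fell, Mfng (-0.92 ± 0.07) and Rfng (-0.20 ± 0.04), the 3 Fringe enzymes that modify Notch and set its response to ligands.

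Between layers 16 of the 43 genes were higher in LII and 8 lower, where 23.5% of all genes tested were higher and 30.5% lower. The corepressor Tle4, also a marker of deep cortical neurons, had the largest difference, with an LFC of -1.67 ± 0.08, and lay at 5.65 to 7.18 log2 CPM in LII and 6.95 to 9.27 log2 CPM in LDeep. Tle3 (0.36 ± 0.10) and Tle1 (0.26 ± 0.07) were higher in LII. The Fringe genes Mfng (0.48 ± 0.06) and Lfng (0.43 ± 0.07) and the fucosyltransferase Pofut1 (0.18 ± 0.06) were higher in LII, as were Maml3 (0.48 ± 0.12), Rbpj (0.24 ± 0.06), and Maml1 (0.18 ± 0.07) of the nuclear complex. Of the cleavage genes Adam17 (0.37 ± 0.05), Aph1a (0.12 ± 0.03), and Ncstn (0.07 ± 0.03) were higher. Among the other receptor and ligands 3 of 5 were higher, including Dlk1 (1.08 ± 0.36), and Dll3 (-0.73 ± 0.24) and Dlk2 (-0.46 ± 0.07) were lower. Dlk1 rested on few counts, with medians of 1.12 CPM in LII and 0.563 CPM in LDeep. Its highest LII value was 39.2 CPM, in a sample of P2. Of the trafficking genes Neurl1 (0.31 ± 0.06) was higher and 4 of 12 were lower, including Epn2 (-0.30 ± 0.04) and Dtx4 (-0.25 ± 0.05). Of the other targets Nrarp (0.27 ± 0.06), an inhibitor of the pathway, was higher and Hes6 (-0.29 ± 0.09) lower. Of these calls, that of Maml1 was lost in 5 of 24 alternatives, that of Ncstn in 6 of 24, those of Dlk1, Maml3, and Pofut1 with limma on quantile-normalized values, and that of Dll3 without replicate 3 of P23.

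**Figure D5:**
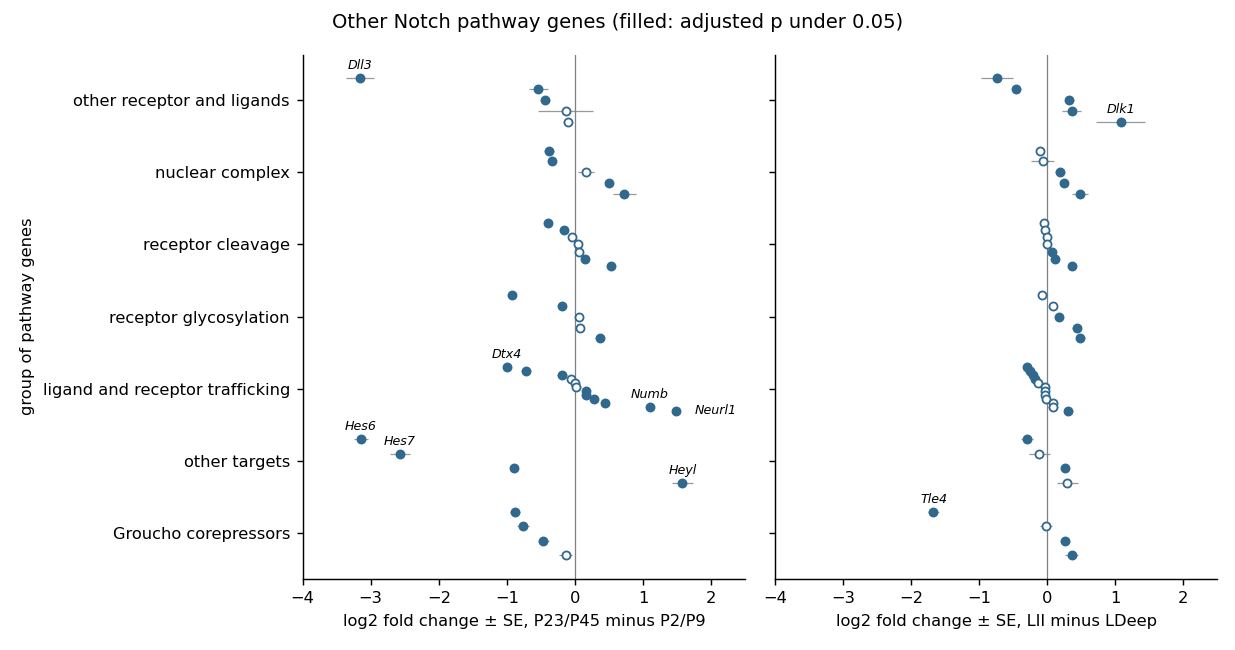
LFC ± SE (x axis, log2 scale) of 42 of the 43 other pathway genes tested, grouped by role (y axis), for P23/P45 against P2/P9 (left) and LII against LDeep (right), with filled points for a BH adjusted p under 0.05. Hes3 is left out because its standard error was not usable. Dll3, Hes6, and Hes7 lie furthest to the left with age and Tle4 between layers.

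Between regions 2 of the 43 genes were higher and 5 lower in MEC, where 8.87% of all genes tested were higher and 6.53% lower. Beside the lower levels of Hes5 and Hey1, the targets Heyl (-0.52 ± 0.15) and Nrarp (-0.21 ± 0.06) were lower in MEC, as were Tle3 (-0.37 ± 0.10), Neurl1 (-0.20 ± 0.06), and Numb (-0.20 ± 0.05), whereas Tle4 (0.44 ± 0.08) and Tle2 (0.28 ± 0.09) were higher. These 7 genes are all that passed in this comparison and were named after their values were seen.

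The profile of each gene over the 16 group means was set beside those of all other genes tested, as a description over groups that share ages and libraries. The most similar gene was Rcbtb2 for Dll1 (Pearson r = 0.99), Lrp5 for Jag1 (0.98), Mrc2 for Notch2 (0.97), Scamp2 for Notch3 (0.97), Galnt2 for Hes5 (0.96), Trim5 for Hey2 (0.96), Stap2 for Hey1 (0.94), LOC100361083 for Notch1 (0.94), and Piga for Hes1 (0.83). The next in order were Igsf9 and Cdk4 for Dll1, Mtmr11 and Plcb3 for Jag1, Angptl2 and Nfatc4 for Notch2, Ccnf and Furin for Notch3, Rab3d and Il1rn for Hes5, Cpt1a and Parp14 for Hey2, Ptafr and Man1a2 for Hey1, Akna and Atp7a for Notch1, and Slc30a9 and Skiv2l2 for Hes1. Among the Notch pathway genes themselves, the profiles of Notch3 and Jag1 were closest (r = 0.91), followed by Dll1 and Hes5 (0.88) and Notch3 and Hes5 (0.86). Dll1 and Hey1 ran in opposite directions (-0.78), as did Jag1 and Hes1 (-0.75). Hes1 had the lowest likeness to its nearest gene of the 9, and it also had the fewest counts, 18 to 171 per sample. Hey2, with 21 to 167 counts per sample, had an r of 0.96 to its nearest gene. The part of the counts in the likeness was not tested.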

How the data were processed

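Total RNA depleted of ribosomal RNA was sequenced on the Illumina HiSeq in paired-end mode from 64 samples of rat entorhinal cortex, dissected from slices under a microscope. The authors deposited 1 table of raw read pair counts per sample. Per the submitters' processing notes these were made with bcl2fastq 1.8.4, Trimmomatic 0.33, STAR 2.4.0, and featureCounts of Subread 1.4.6-p1 on the build rn6 with RefSeq genes. Per the file headers, pairs with both ends mapped were counted over exons on the reverse strand, and a pair that overlapped several genes was counted for each.

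Samples were grouped by the labels into 16 groups of region, layer, and age. The counts were fitted with edgeR 4.0.16 (glmQLFit and glmQLFTest, R 4.3.3) with 1 mean per group, TMM library sizes, and filterByExpr, and P values were BH adjusted over 12521 genes at a threshold of 0.05. Contrasts weighted the groups of each side equally, and the SE is the LFC divided by the square root of F. CPM, log2 CPM with a prior count of 2, and RPKM were computed from the counts here. The fits were tested on simulated data before use.

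Alternatives were RLE size factors, other filters on low counts (none, or at least 10 counts in every sample), a prior count of 0.5, DESeq2 1.42.0, limma 3.58.1 (voom with quantile normalization, as in the study's methods), the replicate number as a block, single regions, and each replicate number of an age left out in turn. Leaving out 2 or 3 MEC libraries of P2, fits within single ages, and the regional contrasts at P2/P9 and at P23/P45 were chosen after seeing the data. The genes described, the wider pathway list, and the marker lists were chosen with earlier results of these data known. Of the wider list, up to 3 genes per group with the largest LFC past the threshold were named for the age and the layer contrast, and all that passed were named between regions. For the likeness of profiles, the 3 genes with the highest Pearson r over the 16 group means were named. Replicates were compared with each other, and in 100 pairs within groups the counts differed by more than sampling noise (lowest chi-square per degree of freedom 3.17). Of the 9 genes Hes1 had the fewest counts per sample. Some genes that enter the counts of the wider pathway list are not reported here by name.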

Additional observations from a re-analysis of the deposited data

Results flagged for a closer look

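In the sample LEC LDeep of P45 replicate 4, Notch1 was at 7.28 log2 CPM and the 3 other samples of its group at 5.09 to 5.36, a gap beyond Dixon's 95% critical value. The same library was also above all others of its group for Notch2 (5.95 log2 CPM), Notch3 (6.21), Dll1 (3.88), Jag1 (4.63), and Hes5 (4.29), and below all others for Hes1 (2.69) and Hey2 (2.58), and it held 4922946 counted read pairs. It enters the LEC LDeep change with age and the layer difference at P45, whose values without replicate 4 of P45 are given with those results.

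In MEC LII of P2 replicate 3, one of the doubted libraries, Notch2 was at 5.30 log2 CPM against 6.41 to 6.86 in the 4 other samples. Dll1 in MEC LDeep of P45 replicate 1 was at 3.38 log2 CPM against 2.93 to 3.00 in the others, Hes5 in LEC LII of P45 replicate 4 at 4.74 against 4.48 to 4.52, and Hes5 in MEC LII of P45 replicate 1 at 3.08 against 3.73 to 3.78. These 5 samples came from 108 groups of values examined, where chance alone gives about 5.4.

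In 4 cases an effect differed between ages by its own test. The layer difference changed with age by 0.63 on the log2 scale for Jag1, by -0.69 for Hes1, and by -0.49 for Hey1, and the regional difference of Hes5 changed by -0.77. For 6 of 7 oligodendrocyte markers the layer difference also moved lower with age, and for 5 of 7 the regional difference moved higher in MEC. The part of these cells in the 4 cases was not tested.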

How the results depend on the processing

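Over 23 comparisons the 9 Notch pathway genes had 5022 values under the alternatives, of which 4734 kept their direction and side of the threshold, 88 lost a call, 62 gained a call, and 138 changed sign without a call on either side. No called value reversed. Over all genes, the number that differed between layers was 6767 and became 4353 with at least 10 counts in every sample, with 5740 to 7220 when a replicate number was left out. The number whose layer difference depended on region was 156, and 286 with the replicate block, 241 without 3 MEC libraries of P2, and 63 to 218 with a replicate number left out. From P23 to P45 it was 482, and 248 with the replicate block by duplicateCorrelation, 65 by summed counts, 731 without the 3 MEC libraries, and 283 to 629 with a replicate number left out. The number whose regional difference changed with age was 548, and 302 to 666 with a replicate number left out. The cause was not tested.

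What the replicate numbers of these libraries mark was not stated in the sources used here. Deviations of samples with the same number from group means had a mean correlation of 0.13 over 96 pairs (lowest -0.26, 55 over 0.1), against -0.04 over 300 pairs of different numbers, and in 104 of 192 comparisons with another tissue piece a sample correlated best with its own number. With the replicate block all 9 genes differed between layers and 7073 genes in all, and 5 of 9 changed with age, Hes1 being lost, with 9888 genes by duplicateCorrelation and 9837 by summed counts. By summed counts the calls of Notch1 and Notch3 from P2 to P9 and of Jag1 from P9 to P23 were lost too.

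The scalings tried did not move the median LFC of all genes by over 0.1. Of the genes whose layer difference depended on region 75.6% had the larger one in MEC, and 65.5% with DESeq2, and of those that differed between layers at P9 50.8% were higher in LII, and 62.3% with no filter on low counts. Of the 9 genes Hes1 had the fewest counts, 18 to 171 per sample. The meaning of the replicate numbers, the sex of the animals, and the cell types behind each change cannot be read from these counts.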
